A study of Dorcoceras hygrometricum with 51 samples.

Results

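The genes of cell division and of microtubules were followed through drought acclimation in leaves of the resurrection plant Boea hygrometrica. Members were found by annotation alone: a gene was taken where its product name or its first protein database hit named an A-, B- or D-type cyclin, a kinesin, a tubulin, a cell division cycle protein, a DNA replication licensing factor or a mitotic protein, and calmodulins were left out. The rule took 152 of 26693 genes, of which 136 reached 1 FPKM (fragments mapped per kilobase of transcript, scaled to the depth of the library) in at least 3 libraries and were tested among 18736 such genes. They were 12 A- or B-type cyclins (all 12 tested), 15 D-type cyclins (13 tested), 7 MCM genes (5 tested), 43 kinesins (39 tested), 13 alpha or beta tubulins (all tested), 12 gamma tubulin and tubulin cofactor genes (all tested), 9 mitotic checkpoint and spindle genes (8 tested), 5 CDC48 genes (all tested) and 7 other cell division cycle genes (6 tested). The words of the rule also took 18 cyclin-dependent kinases (CDKs, 14 tested), 8 CDK inhibitors (7 tested) and 3 calcyclin-binding proteins (2 tested), which are kept as classes of their own. For 6 members the product name and the database hit disagreed: KZV32924 is named tubulin alpha-3 but hits an IQ-domain protein, KZV20224 is named CDC48 but hits a vacuolar sorting protein, KZV54523 is named kinesin-related but hits an uncharacterized protein, KZV23151 is named tubulin-folding cofactor B but hits a transposase, KZV18156 is named a serine/threonine kinase but hits a mitotic-spindle organizing protein, and KZV20729 is named nuclear mitotic apparatus protein but hits a coiled-coil protein.

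In plants, D-type cyclins bind CDKs at the entry into the division cycle, and small CDK inhibitors hold these complexes back. MCM proteins form the helicase that is loaded on replication origins, and A- and B-type cyclins drive DNA synthesis and mitosis. Alpha and beta tubulin build microtubules, gamma tubulin starts them, the folding cofactors assemble the tubulin dimer, and kinesins move along microtubules in the spindle, in the phragmoplast that lays down the new cell wall, and in cells that do not divide. In an expanding leaf dividing cells lie mainly near the base, and microtubules also guide cellulose deposition in expanding cells.

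RNA-seq was performed on 13 groups of leaves with 3 libraries each, each library from about 45 leaves of at least 15 seedlings raised from wild-collected seed. At the start, seedlings of 3 months were slowly dried in soil (SD), rewatered after that drying and thereby acclimated (A), rapidly air-dried after acclimation (AD), rapidly air-dried without acclimation (FD) or left fresh (F). Acclimated and non-acclimated plants were grown on for 4 w and air-dried (A4D, F4D) or left fresh (A4, F4), and for 18 w and air-dried (A18D, F18D) or left fresh (A18, F18). A difference is given as X/Y, the log2 ratio of FPKM + 1 in X over Y with its standard error (SE), from limma over all 39 libraries, and a gene was called up- or down-regulated at a log2 ratio of at least 1 in size and a Benjamini-Hochberg adjusted p of at most 0.05. In bulk leaves fewer cells of a type and less RNA per cell cannot be told apart.

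FPKM summed to between 806800 and 1063492 per library, and the number of reads is not held by the table. The tissue carried the genes of leaf mesophyll: 27 of 29 antenna, photosystem and rubisco small subunit genes passed the filter, and their summed level was 87452 to 143715 FPKM in F leaves. In dried leaves that sum was far lower, for example 9806 to 16754 FPKM in SD leaves, so dried leaves also differed in what filled the library. In the 6 rapid dehydrations the median over all genes was -0.67 to -0.33 as deposited and -0.18 to -0.02 after median-ratio scaling, and counts after scaling are given beside the main ones where the balance of up and down moved by more than 10 percentage points.

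The classes spanned a wide range of levels. Alpha and beta tubulins were abundant as a class, with 12 or 13 of 13 genes at 1 FPKM or more in every library, led by the alpha tubulin KZV38354 (mean of 295.5 FPKM over the 39 libraries), the beta tubulin KZV27362 (251.2 FPKM), and KZV32924 (170.2 FPKM). The cell division genes proper were scarce. The 5 MCM genes averaged 1.42 to 2.52 FPKM, and of the A- and B-type cyclins only KZV45593, a cyclin-B1-2-like gene, was abundant (89.4 FPKM), with KZV30396 (2.73 FPKM) and KZV22483 (1.87 FPKM) next. In all, 47 members were at 1 FPKM or more in all 39 libraries, and 25 were so in 3 to 10 libraries, among them 8 A- or B-type cyclins and 11 kinesins. KZV18157 passed the filter through FD leaves alone, so that it had to be among the members up in FD/F and down in AD/FD, and its differences support nothing. The most abundant member was the CDC48 gene KZV26175 (327.3 FPKM), and other abundant members were the CDC48 gene KZV39921 (115.9 FPKM), the CDK G-2 gene KZV39976 (67.05 FPKM), the CDK F-4-like KZV45247 (65.3 FPKM) and the armadillo-repeat kinesin KZV51180 (70.4 FPKM).

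**Figure D1:**
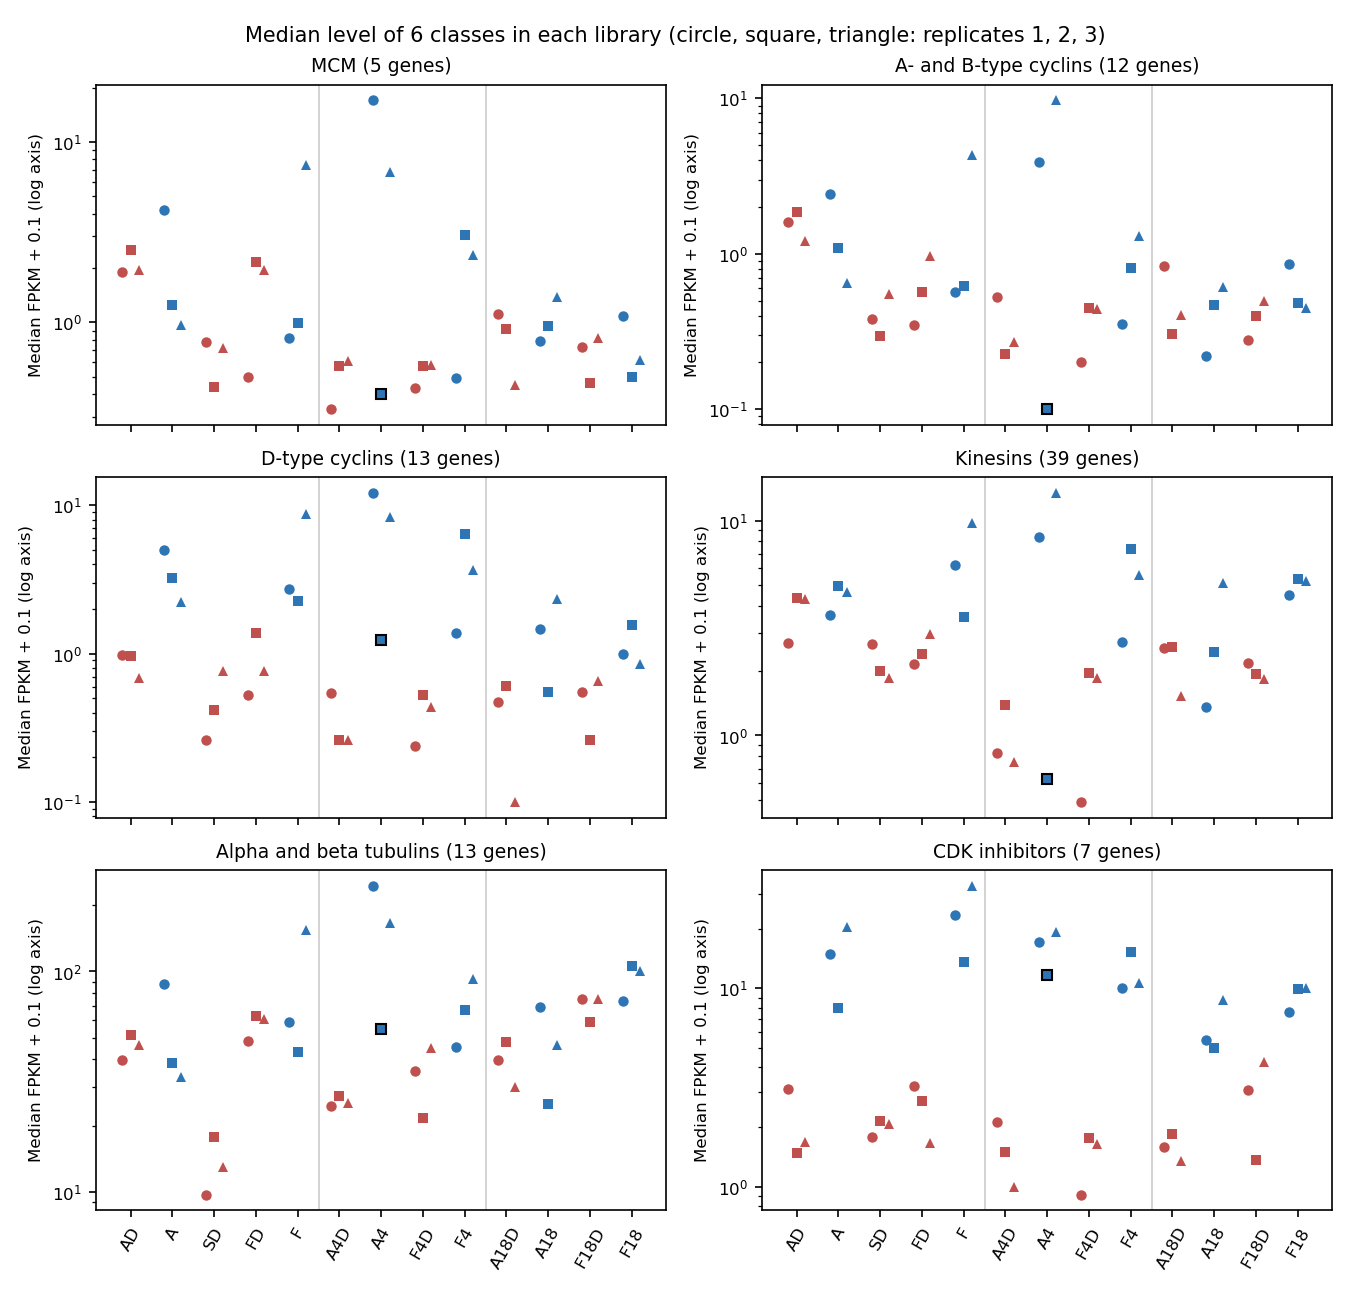
Median FPKM + 0.1 of the tested genes of 6 classes in each library (log axis), by group, with red for dried and blue for hydrated leaves and A4 replicate 2 outlined. For MCM, cyclins, kinesins and tubulins the 3 highest of the 39 medians are those of A4 replicates 1 and 3 and F replicate 3, and the CDK inhibitor medians of all dried groups (0.81 to 4.16 FPKM) before adding 0.1 lie below those of all hydrated groups (4.91 to 32.8 FPKM).

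Before any comparison, the hydrated libraries of one group differed strongly for the cell division genes. The 5 MCM genes summed to 80.5, 1.51 and 33.8 FPKM in A4 replicates 1, 2 and 3, against 2.89, 14.7 and 11.4 FPKM in F4 leaves. In F leaves the sums were 5.25, 4.76 and 33.6 FPKM, and in A leaves 22.1, 6.15 and 4.66 FPKM. Thus A4 replicates 1 and 3, F replicate 3 and A replicate 1 stood high, and A4 replicate 2 was the lowest A4 library by far. The number of A- or B-type cyclins at 1 FPKM or more was 12, 3 and 12 of 12 in A4 leaves, 2, 2 and 7 in F4 leaves, 11, 6 and 2 in A leaves and 2, 2 and 11 in F leaves. It was likewise highest in A4 replicates 1 and 3, A replicate 1 and F replicate 3, but in F4 leaves it was highest in replicate 3, where the MCM sum was highest in replicate 2.

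A4 replicate 2 was the lowest of its group for 116 of the 136 members (85.3%), against 57.8% of all genes tested. For MCM6 (KZV24310) the A4 libraries held 17.0, 0.30 and 6.44 FPKM, against 0.17, 2.41 and 1.88 FPKM in F4 leaves. For cyclin-A1-1 (KZV51573) they held 9.65, 0.27 and 17.4 FPKM, against 0.29, 0.10 and 1.50 FPKM in F4 leaves. A4 replicate 2 was the lowest A4 library for all 13 D-type cyclins, all 5 MCM genes and 37 of 39 kinesins. Not all CDK inhibitors shared this: KZV37448 held 141.4, 173.1 and 55.1 FPKM in A4 leaves, against 116.8, 134.1 and 93.0 FPKM in F4 leaves. The mesophyll list summed to 97453, 173907 and 85641 FPKM in A4 replicates 1, 2 and 3, with replicate 2 the highest for 23 of its 27 genes. The list of young leaf and shoot apex genes (23 of 39 tested) summed to 578.0, 451.8 and 493.3 FPKM, and the root and xylem list (15 of 21 tested) to 150.2, 8.78 and 171.6 FPKM. The young leaf sum was led by 2 knotted-1-like homeobox genes with the database hit LET12, KZV43808 (169.7, 176.5 and 116.5 FPKM) and KZV46537 (75.3, 94.7 and 65.6 FPKM). In large part the sum thus followed these 2 genes, and it does not stand for young tissue as a whole. GRF1-interacting factor 1 (KZV55250) held 59.7, 2.96 and 43.8 FPKM, and axial regulator YABBY 1 (KZV32848) 80.8, 16.9 and 63.2 FPKM. Over the 23 tested genes of that list, replicate 2 was the lowest A4 library for 9 and the highest for 7. Of the genes tested, 0, 1 and 3 of the young leaf list and 4, 5 and 5 of the root and xylem list were at 0 in the 3 A4 libraries. The part of these lists in the members' levels was not tested. F replicate 3, the highest F library for 113 of the 136 members (83.1%) against 54.8% of all genes, likewise had the highest young leaf sum of its group (532.5 FPKM, with 417.6 and 416.9 FPKM in F replicates 1 and 2), while A replicate 1 did not (375.0, 346.0 and 410.8 FPKM in A replicates 1, 2 and 3). F replicate 3 also had the highest root and xylem sum of its group, 233.2 FPKM with 38.7 and 21.5 FPKM in F replicates 1 and 2, and the lowest level of its group for 24 of the 27 mesophyll genes. In A replicate 1 the mesophyll sum was the highest of its group, 203848 FPKM with 125366 and 122517 FPKM in A replicates 2 and 3, and so were 24 of the 27 genes.

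**Figure D2:**
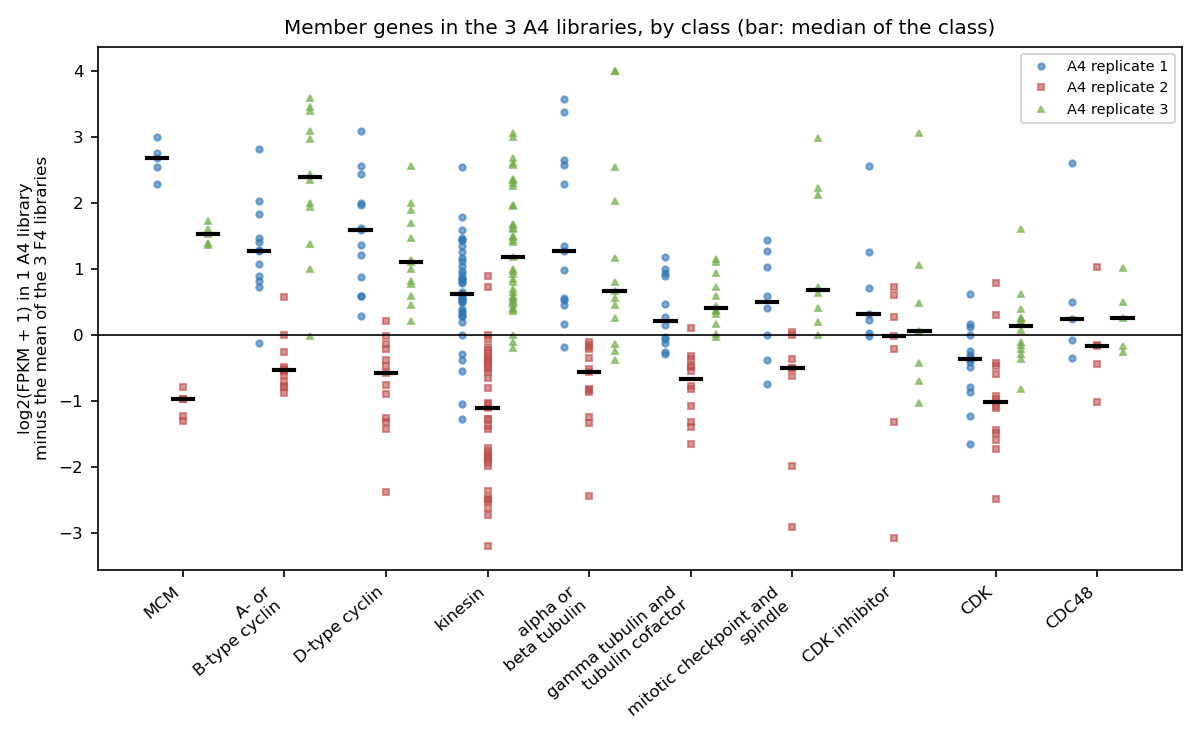
Each point is 1 gene in 1 A4 library, as log2(FPKM + 1) minus its mean over the 3 F4 libraries, by class, with a bar at the class median. For MCM the medians are 2.68, -0.98 and 1.52 in A4 replicates 1, 2 and 3, and for kinesins 0.62, -1.11 and 1.18, whereas for CDK inhibitors they are 0.32, -0.02 and 0.06.

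Tubulins, CDK inhibitors and some D-type cyclins were lower in slowly soil-dried leaves than in fresh leaves, and more members rose than fell in the leaves rewatered after that drying, against the dried ones. In SD/F, 7 members were up-regulated and 38 down-regulated, where 35.0% of all genes tested were called (12.9% up, 22.1% down), so the share of members called (33.1%) was near the background and the down-regulated share (27.9%) somewhat above it. Without F replicate 3, 10 were up- and 34 down-regulated. In A/SD, 37 members were up- and 12 down-regulated, where 34.9% of all genes were called (20.4% up, 14.5% down). The same SD libraries enter both comparisons, so they are not independent. The young leaf and shoot apex list, over all 39 genes, summed to 171.5 to 189.7 FPKM in SD leaves, against 417.1 to 533.5 FPKM in F leaves. Much of this fall was that of KZV43808, with 12.86 to 26.75 FPKM in SD leaves against 181.3 to 199.2 FPKM in F leaves. Other genes of the list rose, such as GRF1-interacting factor 3 (KZV34931), with 32.4 to 62.2 FPKM in SD leaves against 6.61 to 8.47 FPKM in F leaves. The sum therefore does not stand for young tissue as a whole, and the part of the list in these results was not tested.

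Alpha and beta tubulin genes fell in SD leaves: 9 of 13 were down-regulated, none was up-regulated, and the class median was -2.76, against -0.14 over all genes. KZV57522, a beta tubulin, held 25.9, 17.7 and 23.0 FPKM in SD leaves, against 340.7, 353.6 and 536.4 FPKM in F leaves. The groups were far apart, and the fitted log2 ratio was -4.13 (SE 0.45, adjusted p = 1.1e-08). KZV46932, a beta-1 tubulin, held 2.06, 1.90 and 4.50 FPKM in SD leaves, against 49.0, 49.8 and 114.9 FPKM in F leaves (log2 ratio -4.19, SE 0.46). The most abundant alpha tubulin, KZV38354, changed less, with 146.7, 149.0 and 140.8 FPKM in SD leaves against 401.0, 465.4 and 495.9 FPKM in F leaves (log2 ratio -1.63). No library of either group overlapped for these genes, and all of them were up-regulated again in A/SD. As a class sum, alpha and beta tubulins reached 405.2 to 470.1 FPKM in SD leaves and 1554 to 3629 FPKM in F leaves.

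CDK inhibitors, the brakes on CDK activity, fell in SD leaves as well. Of 7 genes, 5 were down-regulated and 1 was up-regulated, with a median of -3.26. KZV37448, a CDK inhibitor 7-like gene, held 1.46, 1.66 and 1.98 FPKM in SD leaves, against 147.6, 84.3 and 139.7 FPKM in F leaves. All SD values lay far below all F values (log2 ratio -5.49, SE 0.43, adjusted p = 2.6e-11). KZV39755, of the same kind, was listed at 0 in all SD libraries, against 64.8, 13.5 and 32.8 FPKM in F leaves. The exception was KZV44356, a CDK inhibitor 3 gene, with 20.6, 32.4 and 27.1 FPKM in SD leaves against 6.89, 7.58 and 12.2 FPKM in F leaves (log2 ratio 1.50, SE 0.33, adjusted p = 0.00047).

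Among the D-type cyclins 5 of 13 were down-regulated and 1 up-regulated in SD/F, where 22.1% of all genes were down and 12.9% up. The cyclin-D1-1-like gene KZV14553 held 0.05, 0.05 and 0.06 FPKM in SD leaves, against 22.5, 22.4 and 35.8 FPKM in F leaves (log2 ratio -4.69, SE 0.50, adjusted p = 8.9e-09). The cyclin-D3-3-like KZV24963 went the other way, with 7.39, 6.80 and 10.1 FPKM in SD leaves against 2.63, 3.44 and 3.45 FPKM in F leaves (log2 ratio 1.11, SE 0.33), a call lost without SD replicate 3. The D-type cyclins thus did not move as one class.

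Of the A- and B-type cyclins, 1 gene was up-regulated in SD/F. KZV33210, a cyclin-A3-1 gene, held 11.4, 5.21 and 6.84 FPKM in SD leaves, against 0.15, 0.11 and 0.73 FPKM in F leaves, and no SD value overlapped an F value (log2 ratio 2.70, SE 0.36, adjusted p = 4.5e-07). In FD leaves the same gene stood at 0.11, 0.16 and 0.00 FPKM, and it was not called in any rapid dehydration. SD leaves and FD leaves were not tested against each other. KZV22483 and KZV28002 were down-regulated in SD/F, but both calls were lost without F replicate 3 or any 1 SD library. None of the 5 MCM genes was called in SD/F by limma (0 at unadjusted p under 0.05), where their fitted log2 ratios ran from -1.28 to -0.67.

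Other members up-regulated in SD/F were CDC48 (KZV26175), the cell division cycle and apoptosis regulator KZV52177, and the CDK genes KZV39976 and KZV53755. KZV52177 held 61.1, 59.5 and 55.5 FPKM in SD leaves, against 18.6, 8.25 and 19.6 FPKM in F leaves (log2 ratio 1.94, SE 0.66, adjusted p = 0.018), and its call was lost without F replicate 2. KZV53755, a CDK C-2-like gene, held 53.1, 51.2 and 54.9 FPKM in SD leaves, against 20.1, 25.9 and 28.5 FPKM in F leaves (log2 ratio 1.08), and its call, like that of KZV39976, was lost without F replicate 1. By contrast KZV42016, named cell division control 2, the kinase of the mitotic cyclins, held 0.00, 0.00 and 0.20 FPKM in SD leaves, against 6.74, 5.54 and 5.41 FPKM in F leaves (log2 ratio -2.69, SE 0.50). Kinesins gave 10 of 39 down-regulated and none up-regulated, where 22.1% of all genes were down and 12.9% up. The largest fall was that of KZV54561, a chromosome-associated kinesin of the KIF4 type (3.02, 2.09 and 1.43 FPKM in SD leaves, against 44.3, 17.8 and 48.8 FPKM in F leaves, log2 ratio -3.48).

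Rapid air-drying down-regulated 22 to 78 members. In FD/F, 6 members were up- and 42 down-regulated, where 42.3% of all genes were called (13.2% up, 29.1% down), and after scaling 10 were up and 31 down (16.9% and 21.6% of all genes). In AD/A, 14 were up and 31 down, where 39.3% of all genes were called (13.1% up, 26.2% down). Down-regulated members outnumbered up-regulated ones in both. In F4D/F4, 3 were up and 49 down, where 46.3% of all genes were called (10.4% up, 35.9% down), and after scaling 9 were up and 33 down (19.0% and 21.0% of all genes). In A4D/A4, 3 were up and 78 down, where 45.9% of all genes were called (10.4% up, 35.5% down), and after scaling 10 were up and 56 down (18.6% and 22.9% of all genes). At 4 w far more members fell than rose, before and after scaling. In F18D/F18, 3 were up and 40 down, where 36.3% of all genes were called (6.13% up, 30.2% down), and after scaling 7 were up and 10 down (10.9% and 9.78% of all genes). In A18D/A18, 4 were up and 22 down, where 27.0% of all genes were called (6.43% up, 20.6% down), and after scaling 5 were up and 10 down (11.5% and 9.71% of all genes). Apart from A4D/A4, where 57.4% of members fell, the down-regulated shares lay within 5 percentage points of the background, and the up-regulated shares (2.21% to 10.3%) lay below it. The members' median in AD/A was -0.22 as deposited and turned to 0.02 after scaling.

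Marker lists moved with rapid drying too. The young leaf and shoot apex list, over all 39 genes, summed to 88.2 to 92.7 FPKM in AD leaves, against 347.1 to 411.4 FPKM in A leaves, and to 108.2 to 131.0 FPKM in FD leaves, against 417.1 to 533.5 FPKM in F leaves. Here too KZV43808 made up much of the fall. It held 10.9 to 16.5 FPKM in AD leaves against 143.9 to 184.5 FPKM in A leaves. In FD leaves it held 17.3 to 19.1 FPKM, against 181.3 to 199.2 FPKM in F leaves. The root and xylem list, over all 21 genes, went the other way, with 466.2 to 599.9 FPKM in AD leaves against 40.6 to 78.3 FPKM in A leaves, and 705.1 to 1446 FPKM in FD leaves against 21.5 to 233.2 FPKM in F leaves. Its dried libraries also lay above the hydrated ones at 4 w, with 402.9 to 1251 FPKM in A4D leaves against 8.87 to 172.0 FPKM in A4 leaves, and 333.5 to 1378 FPKM in F4D leaves against 46.4 to 168.6 FPKM in F4 leaves. At 18 w it reached 1361 to 1698 FPKM in A18D leaves against 52.2 to 722.0 FPKM in A18 leaves, and 1329 to 1688 FPKM in F18D leaves against 240.4 to 360.0 FPKM in F18 leaves. The part of these lists in the members' results was not tested.

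**Figure D3:**
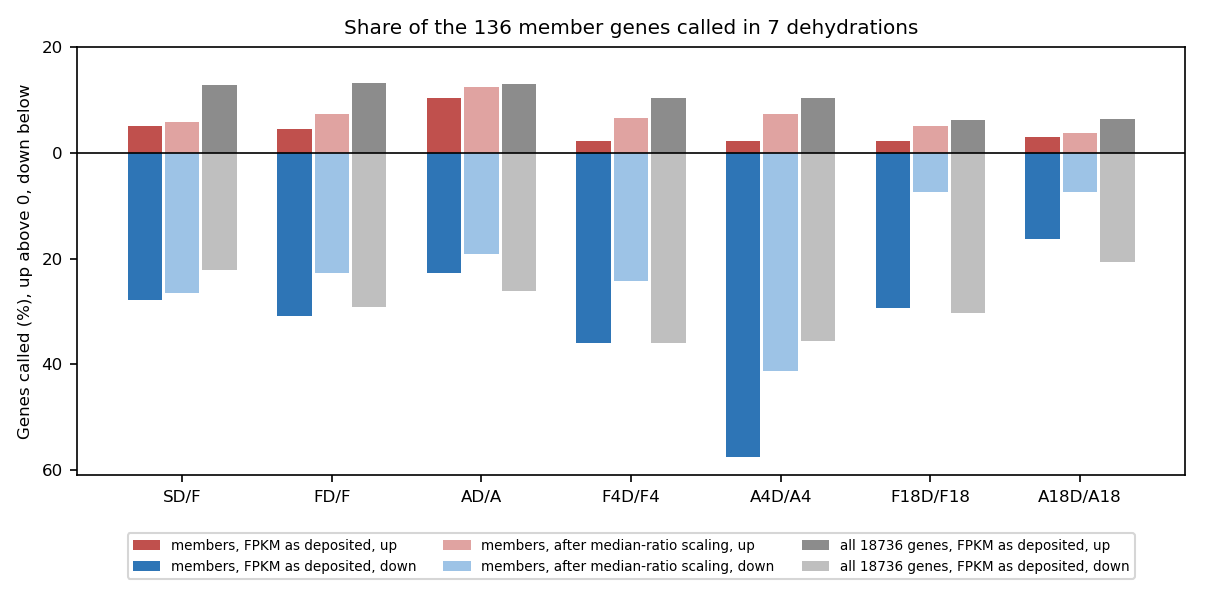
Share of genes called up (above 0) and down (below 0) in slow drying (SD/F) and 6 rapid dehydrations: members as deposited, members after median-ratio scaling, and all 18736 genes tested. The members' down bars stand near those of all genes except in A4D/A4 (57.4%, against 35.5% of all genes), and scaling shortens the F18D/F18 down bar most.

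The 6 rapid dehydrations share no library, and 14 of the 136 members (10.3%) were down-regulated in all 6, beside 10.5% of all genes tested. These were the D-type cyclins KZV14553, KZV18428 and KZV20516, the CDK inhibitors KZV24976, KZV37448 and KZV38958, the beta tubulins KZV27362 and KZV57522, the kinesins KZV44061, KZV51180, KZV53361 and KZV53775, the CDK KZV44453 and the cell division cycle gene KZV38846. At the other end, 27 members (19.9%) were called in none of the 6, beside 26.5% of all genes. The share of members down in all 6 was thus near that of all genes. The 14 are counted as deposited. After scaling only 10 members were down in F18D/F18 and 10 in A18D/A18, so not all 14 stay down in all 6. The A18D/A18 call of KZV14553 was also lost without A18 replicate 3 or A18D replicate 1.

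Some CDK inhibitors were down-regulated in every rapid dehydration. After acclimation 6 of 7 were down in AD/A, 6 in A4D/A4 and 3 in A18D/A18, with class medians of -2.26, -2.81 and -1.26. Without acclimation 5 were down in FD/F, 5 in F4D/F4 and 4 in F18D/F18, with class medians of -2.44, -3.05 and -1.37. In the same order 26.2%, 35.5% and 20.6%, and 29.1%, 35.9% and 30.2% of all genes were down. After scaling the CDK inhibitors down were 6, 6 and 3, and 5, 5 and 2. The scaled shares of all genes down were 20.2%, 22.9% and 9.71%, and 21.6%, 21.0% and 9.78%. The 6 class medians after scaling ran from -2.37 to -0.95. KZV37448 held 3.54, 2.69 and 4.07 FPKM in AD leaves, against 75.8, 51.5 and 101.6 FPKM in A leaves. At 4 w it held 2.44, 0.36 and 3.97 FPKM in A4D leaves, against 141.4, 173.1 and 55.1 FPKM in A4 leaves. At 18 w it held 8.23, 1.75 and 4.81 FPKM in A18D leaves, against 49.0, 49.4 and 49.2 FPKM in A18 leaves. In each pair the dried libraries lay wholly below the hydrated ones, and the log2 ratio was -4.08 in AD/A, -5.29 in A4D/A4 and -3.25 in A18D/A18. KZV38958, also CDK inhibitor 7-like, held 12.1, 8.85 and 8.96 FPKM in FD leaves, against 52.4, 59.3 and 56.4 FPKM in F leaves (log2 ratio -2.39). KZV24976, whose database hit is CDK inhibitor 1, held 1.10, 1.38 and 0.63 FPKM in AD leaves, against 30.6, 15.5 and 28.8 FPKM in A leaves (log2 ratio -3.63). KZV44356, the inhibitor that slow drying raised, was also up-regulated in FD/F (log2 ratio 1.24, SE 0.33, adjusted p = 0.0024), with 19.4, 21.5 and 24.7 FPKM in FD leaves, but its ratio in A4D/A4 was 0.08 (SE 0.33).

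D-type cyclins fell in part in each rapid dehydration, with 5 of 13 down in AD/A, 10 in A4D/A4 and 4 in A18D/A18, and with 6 in FD/F, 9 in F4D/F4 and 4 in F18D/F18. Beside these counts, 26.2%, 35.5% and 20.6%, and 29.1%, 35.9% and 30.2% of all genes were down, in that order. After scaling the D-type cyclins down were 5, 10 and 3, and 6, 6 and 2. The scaled shares of all genes were 20.2%, 22.9% and 9.71%, and 21.6%, 21.0% and 9.78%. KZV14553 held 0.80, 0.77 and 0.62 FPKM in FD leaves, against 22.5, 22.4 and 35.8 FPKM in F leaves (log2 ratio -3.98). At 18 w its A18 libraries were uneven, with 0.37, 0.54 and 0.48 FPKM in A18D leaves against 3.12, 0.30 and 12.3 FPKM in A18 leaves, so that the groups overlapped (log2 ratio -1.50, SE 0.50, adjusted p = 0.021), and the call was lost without A18 replicate 3 or A18D replicate 1. The most abundant D-type cyclin, the D3-3-like KZV18428, held 10.7, 8.94 and 6.74 FPKM in FD leaves, against 23.3, 22.7 and 45.2 FPKM in F leaves (log2 ratio -1.63), and fell most in A4D/A4 (log2 ratio -3.20, SE 0.39). In AD/A 2 D-type cyclins of low level were up-regulated. KZV39733, a D3-3-like gene, held 2.30, 2.49 and 3.85 FPKM in AD leaves, against 0.15, 0.31 and 0.00 FPKM in A leaves (log2 ratio 1.74), and G001775, a D5-3-like gene added to the annotation by the authors, held 2.61, 5.35 and 1.38 FPKM in AD leaves, against 0.62, 0.10 and 0.68 FPKM in A leaves (log2 ratio 1.40), a call lost without AD replicate 2.

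No MCM gene and no A- or B-type cyclin was called by limma in AD/A, A18D/A18, FD/F, F4D/F4 or F18D/F18. A gene under 1 FPKM in all hydrated libraries cannot fall by a log2 ratio of 1 here, even to 0. Library medians of the MCM genes were 0.40 to 0.98 FPKM in F18, 0.69 to 1.28 FPKM in A18 and 0.39 to 2.93 FPKM in F4 leaves. Those of the cyclins were 0.35 to 0.765, 0.12 to 0.51 and 0.255 to 1.21 FPKM. The lack of calls there does not show that these genes did not fall. The MCM medians were -0.02 in AD/A, -0.25 in A18D/A18, -0.29 in FD/F, -0.88 in F4D/F4 and -0.09 in F18D/F18, of which AD/A and F18D/F18 turned to 0.23 and 0.13 after scaling. The cyclin medians were -0.14, 0.05, -0.52, -0.48 and -0.14 in the same order, of which AD/A and F18D/F18 turned to 0.08 and 0.00 after scaling. Over all genes the medians were -0.33, -0.41, -0.45, -0.67 and -0.63. At unadjusted p under 0.05 limma gave 0 MCM genes in all 5 comparisons, and of the 12 cyclins 0 in AD/A, 1 in A18D/A18, 2 in FD/F, 1 in F4D/F4 and 0 in F18D/F18. Of the 12 A- and B-type cyclins, 9, 7 and 8 were at 1 FPKM or more in AD leaves, against 11, 6 and 2 in A leaves. Fewer were so in the later dried acclimated leaves, 2, 1 and 2 in A4D leaves and 6, 3 and 1 in A18D leaves. The abundant cyclin-B1-2-like KZV45593 ranged from 44.9 to 202.5 FPKM over all 39 libraries and was not called in any of the 7 dehydrations (log2 ratios -0.81 to 0.14).

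Under rapid drying the tubulins split. In FD/F 4 of 13 alpha or beta tubulins were down-regulated and 1 up-regulated, where 29.1% of all genes were down and 13.2% up. The down-regulated count was thus near the background. The class median was -0.09 as deposited and 0.29 after scaling, beside the SD/F median of -2.76 (-2.67 after scaling) from the same F libraries. KZV33147, a beta tubulin, held 80.4, 140.6 and 88.8 FPKM in FD leaves and 4.93, 5.54 and 8.93 FPKM in SD leaves, with 52.6, 21.9 and 153.4 FPKM in F leaves. Its FD libraries lay within or near the spread of the F libraries (FD/F log2 ratio 0.82, SE 0.76), while its SD libraries lay below them (SD/F log2 ratio -2.98, SE 0.76, adjusted p = 0.0020). KZV57522 fell in both, with 21.4, 54.5 and 31.2 FPKM in FD leaves (FD/F log2 ratio -3.56, SE 0.45). KZV49700, an alpha tubulin, was scattered in hydrated leaves, with 69.1, 26.4 and 460.7 FPKM in F leaves and 507.5, 16.0 and 684.4 FPKM in A4 leaves, and its ratios under rapid drying, -1.26 in A4D/A4 to 1.96 in AD/A and A18D/A18, were not called.

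**Figure D4:**
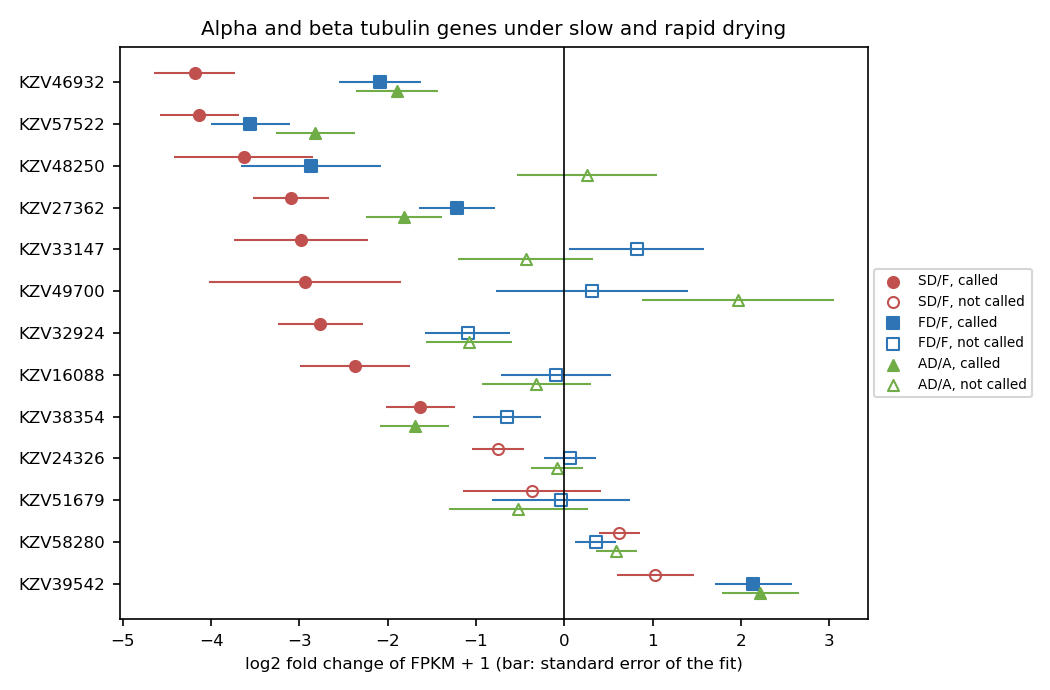
Log2 fold change (x axis, with the SE of the fit) of the 13 alpha and beta tubulin genes in SD/F, FD/F and AD/A, with filled symbols for called genes. In SD/F 9 genes are down-regulated, beside 4 in FD/F and 4 in AD/A, and KZV39542 lies to the right in all (1.03, 2.14 and 2.22), where the SD/F value was not called.

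A beta tubulin of low level, KZV39542, moved against the others. It held 21.8, 13.6 and 14.2 FPKM in FD leaves, against 3.67, 0.58 and 7.08 FPKM in F leaves (log2 ratio 2.14, SE 0.44, adjusted p = 0.00015). It held 12.7, 9.72 and 7.64 FPKM in AD leaves, against 1.15, 1.72 and 1.17 FPKM in A leaves (log2 ratio 2.22). At 4 w it held 19.1, 13.6 and 25.2 FPKM in A4D leaves, against 1.31, 1.44 and 2.61 FPKM in A4 leaves (log2 ratio 2.86), and 23.5, 20.8 and 13.3 FPKM in F4D leaves, against 2.13, 0.48 and 2.97 FPKM in F4 leaves (log2 ratio 2.90). The dried and hydrated libraries did not overlap in any of these pairs. It was up-regulated in A18D/A18 too (1.53, a call lost without A18 replicate 2), but not in F18D/F18 (0.75, SE 0.44, adjusted p = 0.16) or SD/F (1.03, SE 0.44, adjusted p = 0.058).

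The genes that help tubulin fold and start microtubules were down-regulated in part, 3 to 7 of 12 in each rapid dehydration as deposited and 0 to 5 after scaling. Of all genes, 20.6% to 35.9% were down as deposited and 9.71% to 22.9% after scaling. Tubulin-folding cofactor A (KZV45088), which binds beta tubulin, held 8.03, 1.28 and 9.85 FPKM in F4D leaves, against 50.8, 39.4 and 33.4 FPKM in F4 leaves (log2 ratio -2.78, SE 0.38, adjusted p = 3.9e-07). Cofactor C (KZV36611) went up at 18 w, with 49.2, 65.4 and 55.8 FPKM in A18D leaves against 23.5, 15.2 and 46.0 FPKM in A18 leaves (log2 ratio 1.12, SE 0.27), and in F18D/F18 (log2 ratio 1.10), but the calls were lost without A18 replicate 2 and without F18 replicate 3 or F18D replicate 3. Gamma-tubulin complex component 3 (KZV37926) held 1.20, 0.55 and 0.98 FPKM in FD leaves, against 2.79, 2.53 and 5.87 FPKM in F leaves (log2 ratio -1.26), a call lost without F replicate 3 and after scaling (-0.98).

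Of the 39 kinesins, 9 were down-regulated in AD/A, 23 in A4D/A4 and 5 in A18D/A18, and 12 in FD/F, 13 in F4D/F4 and 14 in F18D/F18. In the same order 26.2%, 35.5% and 20.6%, and 29.1%, 35.9% and 30.2% of all genes were down. After scaling the kinesins down were 8, 17 and 2, and 10, 9 and 4. The scaled shares of all genes down were 20.2%, 22.9% and 9.71%, and 21.6%, 21.0% and 9.78%. As deposited, another 6 kinesins were up-regulated in AD/A and 0 in the other 5 comparisons, and after scaling 7 were up in AD/A, 2 in FD/F and 2 in F4D/F4. The abundant armadillo-repeat kinesin KZV51180 held 28.4, 21.9 and 28.5 FPKM in FD leaves, against 151.0, 148.9 and 169.5 FPKM in F leaves (log2 ratio -2.54, SE 0.48, adjusted p = 5.5e-05). In SD leaves it was scattered (175.0, 58.2 and 100.9 FPKM) and not called (SD/F log2 ratio -0.62). KZV39262, a NACK2-like kinesin, a kind needed for phragmoplast expansion in tobacco, held 0.68, 0.64 and 0.22 FPKM in AD leaves, against 10.8, 17.4 and 16.9 FPKM in A leaves (log2 ratio -3.39, SE 0.52, adjusted p = 3e-06). Conversely kinesin-3 (KZV56429) held 14.3, 16.3 and 14.9 FPKM in AD leaves, against 5.08, 2.43 and 2.23 FPKM in A leaves (log2 ratio 1.99, SE 0.71, adjusted p = 0.022), a call lost without A replicate 2, A replicate 3 or AD replicate 2. The other kinesins up in AD/A, KZV20008, KZV37403, KZV48967, KZV16226 and KZV17756, had log2 ratios of 1.24 to 1.51, and the calls of all but KZV16226 were lost when 1 library or another was left out. The kinesin-13A gene KZV25608, a microtubule depolymerizer, stayed between 9.35 and 47.7 FPKM in all libraries and was not called in any dehydration.

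CDC48 (KZV26175), a chaperone-like ATPase that extracts ubiquitylated proteins, was the 1 member of 136 (0.735%) up-regulated in all 6 rapid dehydrations, as were 2.55% of all genes, and it was up-regulated in slow drying too. It held 697.9, 838.5 and 700.1 FPKM in SD leaves, against 63.0, 94.8 and 104.9 FPKM in F leaves (log2 ratio 3.10, SE 0.22, adjusted p = 5.8e-12). In AD leaves it held 430.0, 410.3 and 406.3 FPKM, against 87.4, 93.2 and 69.1 FPKM in A leaves (log2 ratio 2.32). At 18 w it held 490.0, 449.6 and 336.4 FPKM in F18D leaves, against 197.6, 212.0 and 218.2 FPKM in F18 leaves (log2 ratio 1.00, SE 0.22), a call lost without F18 replicate 1, F18D replicate 1 or F18D replicate 2. Dried and hydrated libraries did not overlap in any pair. The other abundant CDC48 gene, KZV39921, was not called in any dehydration (log2 ratios -0.35 to 0.41), and KZV47205 was up-regulated in AD/A (1.18) but not called in FD/F (0.90).

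A CDK G-2-like gene, KZV26034, of a family linked in Arabidopsis to RNA splicing, was up-regulated in 5 of the 6 rapid dehydrations and was not called in AD/A or SD/F. The A18D/A18 call was lost without A18 replicate 3 or A18D replicate 1. It held 29.3, 19.4 and 16.7 FPKM in FD leaves, against 0.87, 1.30 and 0.17 FPKM in F leaves (log2 ratio 3.69, SE 0.51, adjusted p = 5.1e-07), and 0.18, 0.00 and 0.59 FPKM in SD leaves (SD/F log2 ratio -0.47). In AD leaves it held 2.80, 5.27 and 0.80 FPKM, against 1.00, 0.18 and 2.00 FPKM in A leaves, and the libraries overlapped (log2 ratio 0.87, SE 0.51, adjusted p = 0.17). Its dried libraries at 4 w held 3.61, 5.41 and 7.06 FPKM in A4D leaves and 19.5, 18.3 and 16.7 FPKM in F4D leaves.

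**Figure D5:**
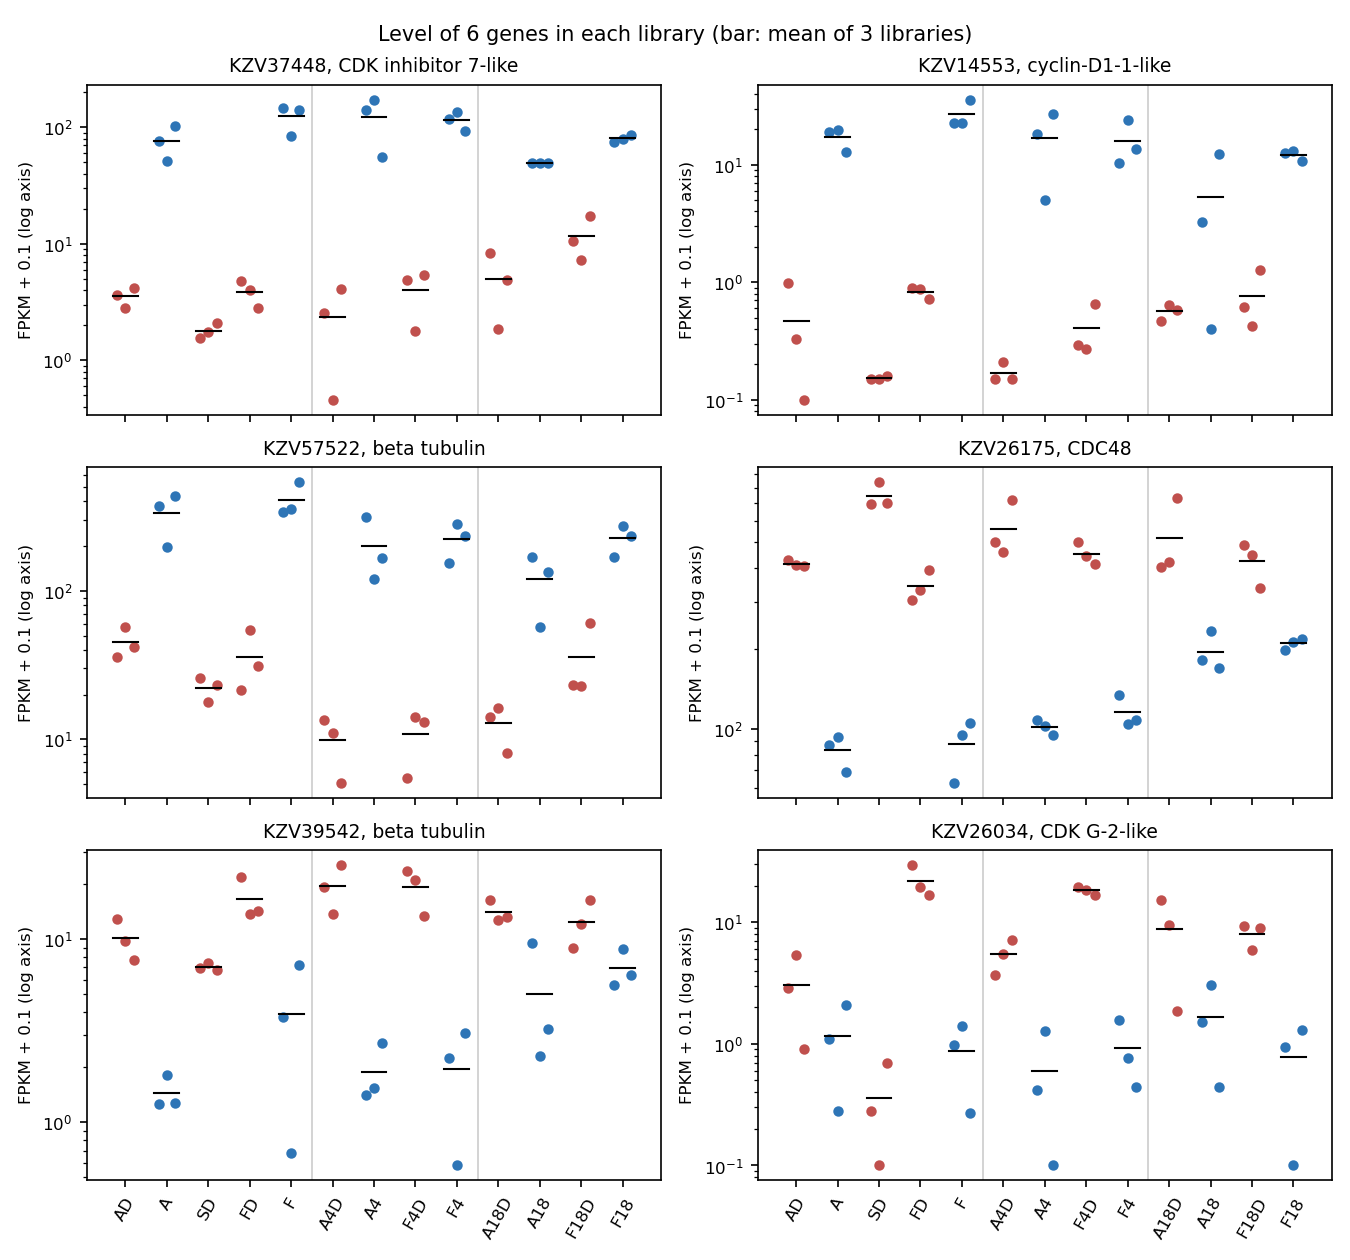
FPKM + 0.1 (log axis) of 6 genes in each library, with the mean of 3 libraries as a bar, red for dried and blue for hydrated leaves. KZV37448, KZV14553 and KZV57522 are low in dried groups, KZV26175 is high in them, KZV39542 is higher in dried groups except that SD/F and F18D/F18 were not called, and KZV26034 is high in FD (16.7 to 29.3 FPKM) and F4D but not in SD (0.00 to 0.59 FPKM).

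Rapid drying at 4 w after acclimation gave the most calls among members. Of the 136 members, 35 (25.7%) were down in A4D/A4 and in no other rapid dehydration, beside 4.36% of all genes, among them 10 A- or B-type cyclins, all 5 tested MCM genes and 11 kinesins. Where such genes were under 1 FPKM in another hydrated group, they could not be called down there. MCM6 (KZV24310) held 0.23, 0.25 and 0.39 FPKM in A4D leaves, against 17.0, 0.30 and 6.44 FPKM in A4 leaves (log2 ratio -2.12, SE 0.58, adjusted p = 0.0028), and the call was lost without A4 replicate 1. A4 replicate 2 thus lay with the dried libraries, and the ratio came from replicates 1 and 3. Without A4 replicate 2, 3 members were up and 106 down, where 42.2% of all genes were down. Without A4 replicate 3 the count was 4 up and 49 down. The share of all genes down in that last fit is not given here, so whether the members then stood above it is not shown. The members' median was -1.40 with all libraries, -2.13 without A4 replicate 2 and -0.81 without A4 replicate 3. The difference between A4D/A4 and F4D/F4 was called for no member by limma (0.0107% of all genes, 0.00534% in each direction, 9 members at unadjusted p under 0.05). Without A4 replicate 2 it was called for 4 members, all lower, where 0.801% of all genes were lower. These were cyclin-A1-1 (KZV51573), kinesin-3 (KZV56429), the spindle checkpoint kinase BUB1 (KZV38859) and a CDK inhibitor (KZV56438), with log2 differences of -3.66, -3.30, -2.55 and -2.52.

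Between acclimated and non-acclimated hydrated leaves few members were called with all libraries in the fit. In A/F limma called no member (0.117% of all genes, 0.0587% in each direction), with 4 at unadjusted p under 0.05. In A4/F4 it called no member (0.0480% of all genes, 0.0213% up and 0.0267% down), with 26 at unadjusted p under 0.05. Without A4 replicate 2, however, A4/F4 gave 34 members up and none down, where 2.74% of all genes were up. These were all 5 MCM genes, 9 of 12 A- or B-type cyclins, 9 of 39 kinesins, 4 of 13 D-type cyclins, 3 of 13 alpha or beta tubulins, 3 of 8 mitotic checkpoint and spindle genes and 1 CDK inhibitor. In that fit the log2 ratio was 3.20 for KZV51573 (SE 0.48, adjusted p = 0.000123) and 2.36 for KZV24310 (SE 0.50, adjusted p = 0.0048). Without A4 replicate 3 instead, 2 members were called, both down. The A4/F4 count of 0 therefore rests on which A4 libraries are taken.

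From the start to 4 w, limma called no member in F4/F (0.0534% of all genes, 0.0267% in each direction, 4 members at unadjusted p under 0.05). In A4/A, 2 members were up-regulated, where 2.08% of all genes were called (0.870% up, 1.21% down). The gamma tubulin KZV25327, which starts microtubules, held 27.1, 8.92 and 19.4 FPKM in A4 leaves, against 8.34, 5.01 and 7.28 FPKM in A leaves (log2 ratio 1.20, SE 0.34, adjusted p = 0.0491), a call lost without A replicate 2, A replicate 3, A4 replicate 1 or A4 replicate 3. The beta tubulin KZV58280 held 78.7, 54.6 and 58.9 FPKM in A4 leaves, against 39.4, 21.6 and 35.1 FPKM in A leaves (log2 ratio 1.00, SE 0.23, adjusted p = 0.0199), a call lost without A replicate 2 or A4 replicate 1. Without A4 replicate 2, 38 members were up in A4/A, where 4.84% of all genes were up, all 5 MCM genes and 5 of 12 A- or B-type cyclins among them. Without A replicate 1 the count was 6 up and 1 down, without A replicate 3 it was 1 up, without A4 replicate 3 it was 1 up and 3 down, and without A replicate 2 or A4 replicate 1 it was 0.

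At 18 w hydrated leaves differed more from those at the start. In F18/F, 6 members were up and 10 down, where 20.6% of all genes were called (13.5% up, 7.15% down), and after scaling 2 were up and 17 down (7.80% and 9.56% of all genes). In A18/A, 3 were up and 14 down, where 13.2% of all genes were called (6.39% up, 6.77% down). The CDK inhibitor KZV39755 held 1.75, 1.14 and 2.34 FPKM in F18 leaves, against 64.8, 13.5 and 32.8 FPKM in F leaves (log2 ratio -3.56, SE 0.75, adjusted p = 0.000717). The KIF4-type kinesin KZV54561 held 2.62, 4.00 and 4.85 FPKM in F18 leaves, against 44.3, 17.8 and 48.8 FPKM in F leaves (log2 ratio -2.88), and the NACK2-like KZV39262 held 0.48, 0.95 and 1.90 FPKM, against 9.15, 6.59 and 15.7 FPKM in F leaves (log2 ratio -2.42). Higher at 18 w in both series were the beta tubulin KZV58280 (log2 ratio 1.41 in F18/F and 1.77 in A18/A), CDC48 KZV26175 (1.28 and 1.21) and CDC48 KZV47205 (1.06 and 1.00). After scaling KZV58280 stayed called in both (1.03 and 1.62), KZV26175 lost its call in F18/F (0.90) and not in A18/A (1.06), and KZV47205 lost both (0.68 and 0.85). The KZV47205 calls were also lost without F replicate 2 or F18 replicate 2, and in A18/A without A replicate 2, A replicate 3, A18 replicate 1 or A18 replicate 2. KZV58280 held 115.4, 137.4 and 139.2 FPKM in F18 leaves, against 41.2, 43.2 and 64.1 FPKM in F leaves, and no library overlapped. The A18/A count was 10 without A replicate 1, 8 without A replicate 3, 7 without A18 replicate 1 and 8 without A18 replicate 2.

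In A18/F18, 1 member was up and 5 were down, where 7.75% of all genes were called (2.00% up, 5.75% down), and after scaling 1 was up and 1 down (2.55% and 1.89% of all genes). The members' median was -0.25 as deposited and turned to 0.02 after scaling. The beta tubulin KZV33147 held 69.3, 16.7 and 30.8 FPKM in A18 leaves, against 170.0, 320.6 and 242.1 FPKM in F18 leaves (log2 ratio -2.80, SE 0.76, adjusted p = 0.0188). KZV42016, the cell division control 2 gene, held 2.02, 1.75 and 2.04 FPKM in A18 leaves, against 7.67, 17.1 and 5.86 FPKM in F18 leaves (log2 ratio -1.80, SE 0.50, adjusted p = 0.0224), and after scaling it was not called (limma, -1.41, adjusted p = 0.0924). The KZV33147 call was lost without A18 replicate 2, F18 replicate 2 or F18 replicate 3, and the KZV42016 call without A18 replicate 2 or F18 replicate 2. These groups did not overlap, but the A18/F18 count was 0 without F18 replicate 2, 2 without A18 replicate 2 and 3 without F18 replicate 3.

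Among dried leaves, 9 members were up and 5 down in AD/FD, where 15.8% of all genes were called (6.89% up, 8.92% down), and after scaling 16 were up and 3 down (8.85% and 7.43% of all genes). Kinesin-3 (KZV56429) held 14.3, 16.3 and 14.9 FPKM in AD leaves, against 1.17, 1.68 and 4.46 FPKM in FD leaves (log2 ratio 2.35, SE 0.71, adjusted p = 0.0184), a call lost without AD replicate 2, AD replicate 3, FD replicate 1 or FD replicate 2. The alpha tubulin KZV48250 held 54.8, 123.4 and 93.5 FPKM in AD leaves, against 2.70, 11.4 and 20.9 FPKM in FD leaves (log2 ratio 3.12, SE 0.79, adjusted p = 0.00512), a call lost without FD replicate 1. KZV38354 was the reverse, with 110.5, 100.8 and 88.3 FPKM in AD leaves against 241.3, 361.1 and 272.0 FPKM in FD leaves (log2 ratio -1.52, SE 0.39). No library of AD and FD overlapped for these genes. The AD/FD count was 8 without AD replicate 2, AD replicate 3 or FD replicate 1, and 9 without FD replicate 2. In A4D/F4D limma called no member (0.0320% of all genes, 0.00534% up and 0.0267% down, 2 at unadjusted p under 0.05), and in A18D/F18D none (0.662% of all genes, 0.187% up and 0.475% down, 9 at unadjusted p under 0.05).

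The response to rapid drying itself differed with acclimation for 5 members at the start, KZV18157 among them, where 8.81% of all genes were called (4.40% up, 4.41% down) in (AD/A)-(FD/F). After scaling 5 were up and 2 down (5.28% and 4.66% of all genes). The 4 beside KZV18157 are CDK genes: KZV26034 was raised less after acclimation, and KZV53754, G001287 and G001288 were lowered in FD/F and not called in AD/A. KZV53754, a CDK C-1 gene of a kind that acts in transcription, lies 837 bases from the CDK C-2 gene KZV53755 on scaffold KQ990066.1 (positions 224068 to 226931, and 227768 to 231491), and KZV53755 was not called in either dehydration. KZV53754 held 8.98, 6.85 and 8.87 FPKM in AD leaves, against 3.86, 7.14 and 4.21 FPKM in A leaves, and 2.83, 1.14 and 2.63 FPKM in FD leaves, against 6.24, 7.86 and 12.4 FPKM in F leaves. At 18 w no member was called in the same difference (0.801% of all genes, 0.512% up and 0.288% down, 5 at unadjusted p under 0.05). Without F replicate 3 or AD replicate 3 the count at the start was 3. The KZV26034 call was lost without AD replicate 3, the KZV53754 call without F replicate 3 or FD replicate 2, and the G001287 call when any 1 of 7 libraries was left out.

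A further list of division genes outside the rule (139 genes of replication, chromosome condensation, the spindle and cytokinesis, 130 tested) was counted beside the members. It gave 13 up and 19 down in SD/F. After acclimation it gave 11 up and 15 down in AD/A, 3 and 64 in A4D/A4, and 2 and 11 in A18D/A18. Without acclimation it gave 9 up and 20 down in FD/F, 4 and 38 in F4D/F4, and 4 and 25 in F18D/F18. Of all genes, 22.1% were down in SD/F, 26.2% in AD/A, 35.5% in A4D/A4 and 20.6% in A18D/A18. The shares down were 29.1% in FD/F, 35.9% in F4D/F4 and 30.2% in F18D/F18. Only in A4D/A4 was the down-regulated share of the list above that of all genes. The medians of the list were -0.21 in SD/F and -1.02 in A4D/A4, beside -0.64 and -1.40 for the members and -0.14 and -0.61 for all genes. Without F replicate 3 the members' median in SD/F was -0.18. Without A4 replicate 2, 27 genes of the list were up in A4/F4 and none was down, where 2.74% of all genes were up.

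Promoter methylation was given by whole-genome bisulfite sequencing of 1 pooled library for each of 12 groups (none for FD), so it has no replicate check and no test. The paper reports the average depth of these libraries, but the depth at each promoter is not held by the table. Promoters are the 2 kb upstream of the coding region, and 107 of the 152 members had a row under their own locus tag. In the methylation table the expression given beside a tag followed that of the preceding tag (Pearson r = 0.935 across 15579 genes, against 0.078 across 12745 genes at the same tag), so which gene a promoter row belongs to is unsettled. The values below follow the tag as written. The median CG methylation of member promoters was 38.4%, against 59.2% over all 18186 promoters. Of the 107 members with a row, a span of at least 20 percentage points over the groups was found for 50 in CG, 30 in CHG and 15 in CHH. In CG that was 46.7% of these members, against 32.1% of all promoters. In CHG and CHH the members' shares also lay above those of all promoters (22.3% and 12.0%).

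The A4 library was the least methylated at member promoters, with a mean CG level of 34.2% against 38.8% to 42.2% in the other groups, and likewise over all promoters (48.2%, against 52.8% to 56.1%). At the cyclin-D3-3-like KZV54554 the CG level was 0.00% in the A4 library and 74.4% in the F4 library, and at MCM5 (KZV16445) it was 13.9% in A4 and 55.5% in F4. The CDK inhibitor KZV37448 and CDC48 KZV26175 had low CG levels in all 12 libraries (1.60% to 4.36%, and 0.00% to 1.37%). At the beta tubulin KZV57522 the CG level stayed between 21.9% and 31.3%.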

How the data were processed

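Libraries were grouped by the sample labels. Per the study's methods the authors aligned reads with HISAT, assembled transcripts with StringTie, mapped with Bowtie2 (2.2.5) and estimated FPKM with RSEM. The deposited table holds FPKM per gene and library, with 2355 genes added by the authors, and no counts. For the genome build, no version is given in the sources used here. The deposited promoter table, from BSMAP alignments with up to 2 mismatches, holds methylation as a fraction, printed here as percent, and FPKM of unstated origin that was used only for the tag check.

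Genes that reached 1 FPKM in 3 libraries or more were tested with limma (3.58.1) on log2(FPKM + 1), a scale that understates changes of low genes, with 1 mean per group and a trended prior. Scripts were tested on simulated data. Alternatives were a pseudocount of 0.1, no filter, median-ratio scaling, a replicate block, the libraries of a comparison alone, and each library left out. Members and lists were chosen with earlier results of these data known. Single genes named from the young leaf list were chosen after their values were seen. Named genes are the up to 3 most abundant per class, and per comparison and direction the up to 3 called members with the largest log2 ratio, a mean of 5 FPKM or more in the higher group, and no overlap. G001775, KZV16226, KZV16445, KZV17756, KZV20008, KZV20224, KZV20516, KZV23151, KZV24963, KZV28002, KZV37403, KZV37926, KZV38859, KZV39733, KZV44061, KZV44453, KZV46932, KZV48967, KZV51573, KZV53361, KZV53755, KZV53775, KZV54554 and KZV56438 were chosen after their values were seen.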

Additional observations from a re-analysis of the deposited data

Results flagged for a closer look

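The difference in the response to rapid drying with and without acclimation at the start, (AD/A)-(FD/F), passed the test for 5 members. KZV18157, annotated like a mitotic-spindle organizing protein, had a log2 difference of -2.51, which supports nothing, since it passed the filter on low values through FD leaves alone. It held 7.31, 6.78 and 4.67 FPKM in FD leaves and 0.99 FPKM in 1 F library, and was listed at 0 in all other libraries, so that the size of the difference depends on the pseudocount. It lies 1909 bases from KZV18156, a member with the same database hit. G001288, a CDK F-4-like gene, had a difference of 4.31 (limma, SE 0.55, adjusted p = 9.34e-07). It was listed at 0 in all FD libraries, against 18.0, 12.1 and 15.4 FPKM in F leaves, and held 9.49, 11.6 and 14.0 FPKM in AD leaves, against 6.79, 8.56 and 12.8 FPKM in A leaves, and here too the size depends on the pseudocount. Its neighbour in name, G001287, with the same database hit, had a difference of 1.50 (SE 0.45, adjusted p = 0.0317), a call lost when any 1 of 7 libraries was left out, and reads of such copies may be split between them by the counting. KZV26034 had a difference of -2.83 (SE 0.72, adjusted p = 0.011), lost with a pseudocount of 0.1 (adjusted p = 0.133) and without AD replicate 3, and KZV53754 one of 2.25 (SE 0.61, adjusted p = 0.0171), lost without F replicate 3 or FD replicate 2.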

How the results depend on the processing

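Apart from leaving out libraries, 95 of 111 recomputed counts stayed within 1.5 times the main count, and no called value of a named gene turned direction. Medians that turned after scaling are given beside them. With a pseudocount of 0.1 the members called were 3 in A18/F18 and 1 in A4/A. Median-ratio scaling gave 17 in F18D/F18, 15 in A18D/A18 and 2 in A18/F18. Fits on the libraries of a comparison alone gave 33 in A4D/A4, 12 in A18D/A18, 8 in (AD/A)-(FD/F), and 0 in A18/F18, A4/A and A18/A. Replicate numbers did not pair the libraries (in no comparison were all 3 correlations over 0.1), and the replicate block moved 1 count beyond 1.5 times, to 1 in A4/A. With a span of 10 points, the promoters counted were 85 in CG (79.4%, against 72.7% of all promoters). They were 61 in CHG (57.0%, against 61.5%) and 44 in CHH (41.1%, against 50.2%), so in CHG and CHH the members' share turned below that of all promoters. With promoters read from the next locus tag, a choice made after seeing the data, CHH gave 8 of 118 at a span of 20 points. That share (6.78%) lay below the 12.0% of all promoters.

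Leaving out 1 library at a time gave 40 to 52 members in SD/F, 42 to 45 in A/SD, 43 to 53 in FD/F, 38 to 43 in AD/A, 44 to 55 in F4D/F4, 53 to 109 in A4D/A4, 31 to 42 in F18D/F18, 21 to 34 in A18D/A18, 11 to 15 in F18/F, 7 to 20 in A18/A, 8 to 13 in AD/FD, 0 to 7 in A18/F18, 0 to 38 in A4/A, 0 to 34 in A4/F4, 3 to 7 in (AD/A)-(FD/F) and 0 to 4 in (A4D/A4)-(F4D/F4). Where 1 library was left out the spread was pooled over all groups. Of 112 results of single genes, 29 lost their call under a setting other than a left-out library and 35 with 1 library left out, 40 in all. A pseudocount of 0.1 ended the calls of KZV52177 in SD/F, KZV56429 and KZV37403 in AD/A, KZV26034 in A18D/A18, KZV42016 and KZV25790 in A18/F18, KZV25327 in A4/A, KZV33147 in F18/F and KZV56429 in AD/FD. Without the filter KZV22483 and KZV28002 in SD/F, KZV37403 in AD/A, KZV25327 in A4/A and KZV33147 in F18/F were lost. Scaling also ended KZV28002 in SD/F, KZV25790 in A18/F18 and KZV33147 in F18/F, and the block KZV25327 in A4/A. Fits on the libraries alone ended 21 calls, all 6 named in A18/A among them. FPKM hold no depth, so levels under 1 FPKM carry unknown counting error.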
